A study of Mus musculus with 4 samples.

Results

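Chemokines are small secreted or membrane-tethered proteins that guide the movement of cells, and the genes of this family and of its receptors are described here in organoids of a mouse colorectal tumour. The members were the autosomal protein-coding genes of GENCODE M21 whose symbols begin with Ccl and a number, or consist of Cxcl, Ccr or Cxcr and a number, together with Cx3cl1 and Cx3cr1. This gave 52 genes of 20722 autosomal protein-coding genes with an annotated protein-coding start: 23 CC ligands, 13 CXC or CX3C ligands and 16 receptors. Cxcr3, which is on chromosome X, and Cxcl11, annotated as a polymorphic pseudogene, were not members.

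Azoxymethane, a carcinogen, together with the colitis agent dextran sulfate sodium (AOM/DSS) gave the mouse tumours behind the organoids, which are labelled clone 3 at passage 14 and so represent 1 clone. ChIP-seq had been done with antibodies against KMT9alpha, KMT9beta and H4K12me1, with 1 library each, and their input is not analysed here. The genotype is given as not available, and the treatment text names tamoxifen and vehicle for every library without assigning either. No value below therefore has a replicate check, no treatment was compared and no test was made between groups. The depth of the libraries is unknown.

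KMT9 is a methyltransferase of 2 subunits that places a single methyl group on lysine 12 of histone H4, the mark called H4K12me1. Chemokines bind receptors that couple to inhibitory G proteins. CC ligands mainly attract monocytes, lymphocytes and eosinophils, whereas the CXC ligands Cxcl1, Cxcl2, Cxcl3 and Cxcl5 attract neutrophils through Cxcr2. Gut epithelium is known to make several of them, among them Cxcl1, Cxcl2 and Cxcl5 under NF-kB signalling in inflammation, Ccl20, Ccl25 and Ccl28 for lymphocytes, and the membrane-tethered Cxcl16 and Cx3cl1. Most of the receptors are known from leukocytes, and Cxcr4 is also made by epithelial cells.

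The promoters of 6 members are shown because they hold the contrast described below: all 3 libraries had a peak at Cxcl1, Cxcl2, Cx3cl1 and Cxcr4, only KMT9beta had one at Cxcl3, and none had one at Ccl20. These peaks were counted within 1 kb of a start and need not cover the bases printed. H4K12me1 covered none of the printed Cx3cl1 bases, and only KMT9beta covered those of Cxcr4. Each sequence runs 5′ to 3′ on the gene's own strand from 250 bases before to 50 bases after the RefSeq start (GRCm38.p6, the assembly behind mm10). Capitals mark matches to the NF-kB consensus on either strand and to the TATA box letters TATAAA on the gene's strand. Where NF-kB matches on both strands overlap by all but 1 base, the capitals cover both.
The intervals are chr5:90890995-90891294 (plus strand), chr5:90903649-90903948 (plus), chr5:90785851-90786150 (plus), chr8:94771930-94772229 (plus), chr1:128592250-128592549 (minus) and chr1:83116516-83116815 (plus).
Cxcl1: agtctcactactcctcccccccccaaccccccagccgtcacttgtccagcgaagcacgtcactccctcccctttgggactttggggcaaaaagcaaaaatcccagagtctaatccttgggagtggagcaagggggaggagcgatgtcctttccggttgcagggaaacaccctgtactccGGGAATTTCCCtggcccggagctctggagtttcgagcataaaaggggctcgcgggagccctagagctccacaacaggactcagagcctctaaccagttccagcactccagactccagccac
Cxcl2: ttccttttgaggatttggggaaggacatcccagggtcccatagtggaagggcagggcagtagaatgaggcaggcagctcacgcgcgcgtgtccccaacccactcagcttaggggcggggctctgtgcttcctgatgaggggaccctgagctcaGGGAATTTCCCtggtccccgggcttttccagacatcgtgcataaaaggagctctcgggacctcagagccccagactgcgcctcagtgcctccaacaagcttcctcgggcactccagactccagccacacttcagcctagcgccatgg
Cxcl3: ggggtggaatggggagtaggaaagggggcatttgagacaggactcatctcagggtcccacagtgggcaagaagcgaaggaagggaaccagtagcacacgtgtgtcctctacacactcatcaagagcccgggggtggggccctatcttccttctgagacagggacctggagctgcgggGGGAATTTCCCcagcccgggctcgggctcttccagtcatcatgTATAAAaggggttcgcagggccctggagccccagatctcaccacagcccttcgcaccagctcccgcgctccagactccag
Cx3cl1: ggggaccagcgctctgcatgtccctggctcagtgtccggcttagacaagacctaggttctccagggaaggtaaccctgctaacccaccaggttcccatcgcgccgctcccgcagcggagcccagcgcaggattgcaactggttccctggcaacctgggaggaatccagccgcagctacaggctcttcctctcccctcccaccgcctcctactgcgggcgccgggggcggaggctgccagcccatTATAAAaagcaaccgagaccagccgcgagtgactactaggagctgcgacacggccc
Cxcr4: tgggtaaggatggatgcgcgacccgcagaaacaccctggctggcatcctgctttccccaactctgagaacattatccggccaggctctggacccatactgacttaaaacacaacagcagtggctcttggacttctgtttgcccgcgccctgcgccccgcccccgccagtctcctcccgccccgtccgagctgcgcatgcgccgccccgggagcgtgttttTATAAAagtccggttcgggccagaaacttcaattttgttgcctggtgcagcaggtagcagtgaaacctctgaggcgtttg
Ccl20: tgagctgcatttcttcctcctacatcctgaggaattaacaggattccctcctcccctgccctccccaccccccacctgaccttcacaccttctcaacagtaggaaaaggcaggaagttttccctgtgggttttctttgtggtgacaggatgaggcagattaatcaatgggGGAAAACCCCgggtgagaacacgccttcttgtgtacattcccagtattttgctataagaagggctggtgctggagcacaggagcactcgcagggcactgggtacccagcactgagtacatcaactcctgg

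Cxcl1, Cxcl2 and Cxcl3 carried the same NF-kB match. Its first base lay 71, 97 and 73 bases before the RefSeq start respectively. Peaks were placed by GENCODE starts, which for Cxcl2 are 90903871 and 90903873, against a RefSeq start of 90903899. Of these genes only Cxcl1 and Cxcl2 had peaks of all 3 libraries. Ccl20, with no peak, also held a match, on the opposite strand. A match to the NF-kB consensus on either strand was found in 4.51% of the 32851 RefSeq promoters of this length, and in 9 of the 45 promoters (20%) listed for the 38 members that matched RefSeq. These 9 belonged to Cxcl1, Cxcl2, Cxcl3, Cxcl10, Ccl9, Ccl20, Ccl27a, Ccr3 and Ccr6, of which Ccl9, Ccl20, Ccr3 and Ccr6 had no promoter peak of any library. TATAAA on the gene's strand was present in 8.32% of all promoters and in 10 of the 45. Matches are descriptions of letters and not of binding.

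A promoter was taken as 1 kb either side of any annotated protein-coding start, and a peak counted when it shared 1 bp or more with it. KMT9alpha had a promoter peak at 11 of the 52 members (21.2%, exact Clopper-Pearson 95% interval 11.1 to 34.7), against 55.8% of all autosomal protein-coding genes. KMT9beta had one at 14 (26.9%, 15.6 to 41.02), against 68.3% of all genes. H4K12me1 had one at 12 (23.1%, 12.5 to 36.8), against 47.4%. All 3 were present at 5 members (9.62%, 3.20 to 21.03), against 37.4%: Cxcl1, Cxcl2, Cxcl16, Cx3cl1 and Cxcr4. No library had a promoter peak at 31 members (59.6%, 45.1 to 73.0), against 27.1%. The intervals cover counting over genes in 1 library only, and clustered genes are not independent.

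**Figure D1:**
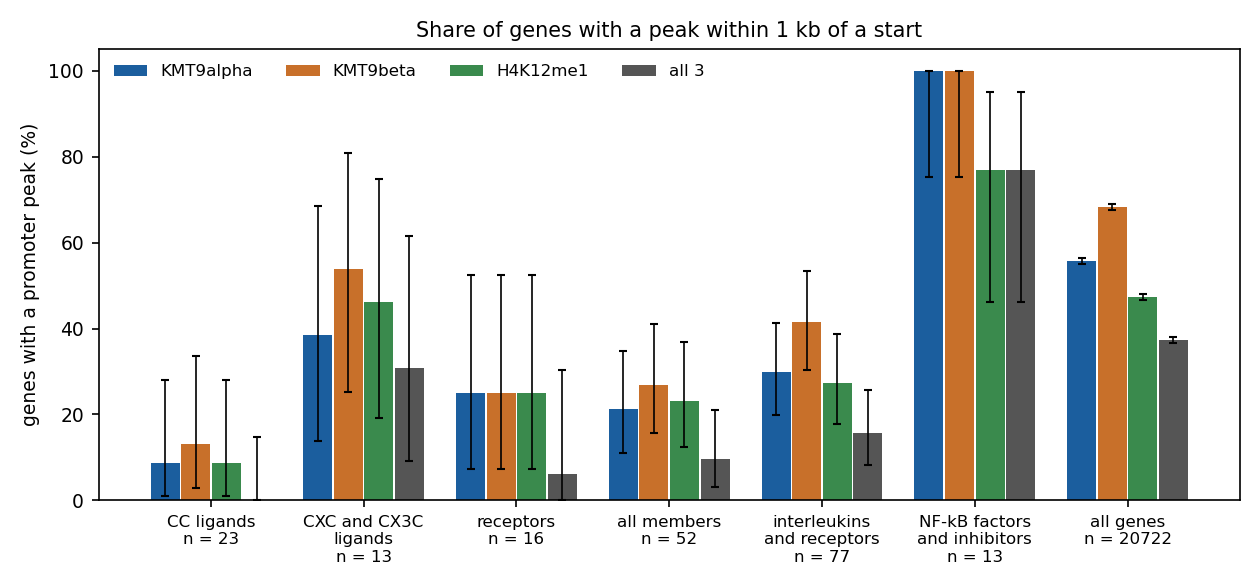
Share of genes (%) with a peak within 1 kb of a start for each library and for all 3, in the chemokine ligands and receptors, in 2 other gene lists and in all autosomal protein-coding genes. Bars are shares and lines exact 95% intervals over genes of 1 library. CC ligands are lowest, with 0 of 23 genes carrying all 3, and the 13 CXC and CX3C ligands hold 4 genes with all 3.

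Counts by family follow. Of the 23 CC ligands, 2 carried KMT9alpha (Ccl25 and Ccl27a, 8.70%, against 55.8% of all genes). KMT9beta was at 3 (Ccl17, Ccl24 and Ccl25, 13.0%, against 68.3%) and H4K12me1 at 2 (Ccl22 and Ccl27a, 8.70%, against 47.4%). None of the CC ligands carried all 3 (upper limit 14.8%, against 37.4% of all genes) and 18 carried none (78.3%, against 27.1%). Of the 13 CXC and CX3C ligands, 5 carried KMT9alpha (38.5%, against 55.8% of all genes), 7 KMT9beta (53.8%, against 68.3%) and 6 H4K12me1 (46.2%, against 47.4%), 4 carried all 3 (30.8%, against 37.4%) and 4 carried none (30.8%, against 27.1%). The CXC and CX3C shares for H4K12me1, all 3 and none were thus near those of all genes. Of the 16 receptors, 4 carried each library (25%, against 55.8% for KMT9alpha, 68.3% for KMT9beta and 47.4% for H4K12me1 over all genes). Only Cxcr4 carried all 3 (6.25%, against 37.4%), and 9 carried none (56.25%, against 27.1%). The difference between families was not tested.

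The promoters of the members were poor in CpG. The ratio of observed to expected CpG dinucleotides in the 2 kb windows had a median of 0.21 over the 52 members and of 0.45 over all genes. With all genes divided into 5 equal classes by this ratio, 22 members fell in the lowest class, 20 in the second, 6 in the third, 1 in the fourth and 3 in the highest. In the lowest class 0 of 22 members and 3.55% of all genes had KMT9alpha, in the second 5 of 20 and 28.2%, in the third 4 of 6 and 70.8%, in the fourth 0 of 1 and 85.1%, and in the highest 2 of 3 and 91.3%. The class shares of all genes, weighted by the members' classes, come to 14.3 members for KMT9alpha, 22.6 for KMT9beta, 15.2 for H4K12me1 and 9.0 for all 3, where 11, 14, 12 and 5 were counted. Each count was below the weighted number, and this difference was not tested.

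**Figure D2:**
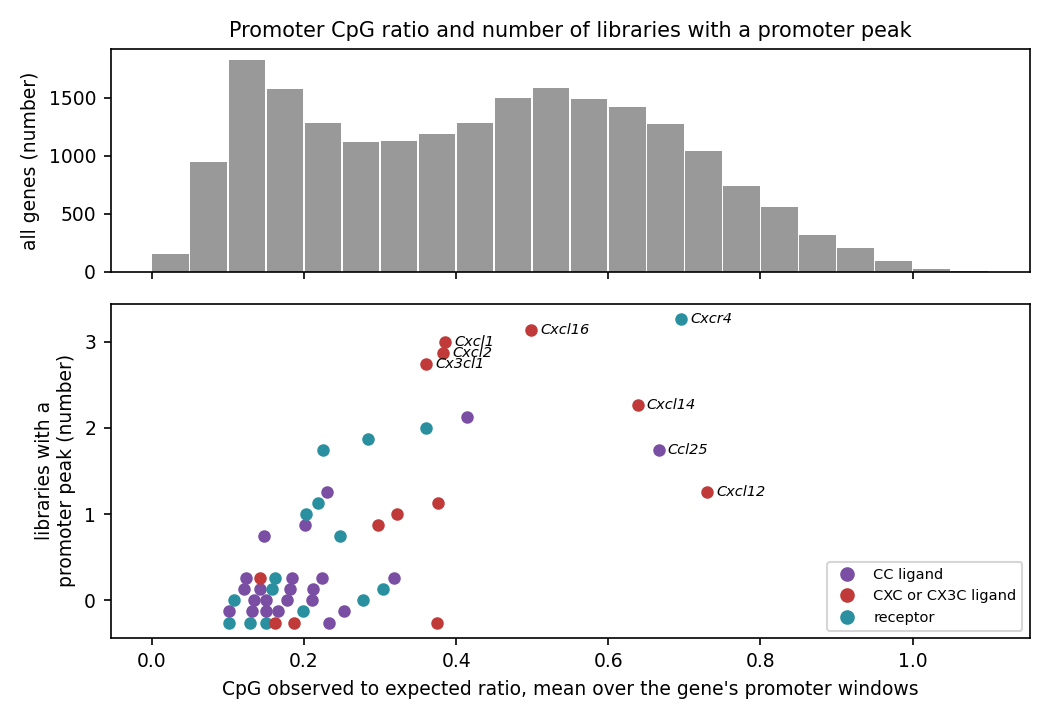
Upper panel: number of autosomal protein-coding genes by promoter CpG observed to expected ratio. Lower panel: each of the 52 members by its ratio and by how many of the 3 libraries had a promoter peak, coloured by role and spread vertically within a number for legibility. Members with none lie between 0.10 and 0.37, and the 5 with all 3 lie between 0.36 and 0.70.

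Cxcl1, a neutrophil attractant, had the highest scores of the ligands with all 3 for KMT9alpha and H4K12me1. The gene lies at chr5:90891241-90893115 on the plus strand. The score is the authors' own value for each peak and ranks peaks only within 1 list. The KMT9alpha peak (chr5:90890476-90891892) scored 3100, a value at which scores pile up and which 80.7% of the KMT9alpha peaks did not reach. The KMT9beta peak (chr5:90890721-90891891) scored 347.81, above 95.3% of its list, and the H4K12me1 peak (chr5:90890687-90891844) scored 192.06, above 93.3%. The 3 peaks shared 1124 bp that span the start and the NF-kB match, and no start of another protein-coding gene lay within 1 kb of them.

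Cxcl2, its neighbour at chr5:90903871-90905938 with the same receptor, carried all 3 at lower ranks. KMT9alpha scored 200.35 (above 28.2% of its list), KMT9beta 79.78 (above 43.6%) and H4K12me1 117.29 (above 80.0%). The 3 peaks shared 314 bp across the start. Both subunits were thus below the median of their lists at Cxcl2 and above it at Cxcl1, while the mark ranked high at both genes.

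Cxcl16, a membrane-tethered ligand of Cxcr6 at chr11:70453983-70459984 on the minus strand, had a KMT9alpha score of 2692.37 (above 79.0%), a KMT9beta score of 119.1 (above 68.0%) and H4K12me1 peaks of 75.47 and 65.64. The peak of 65.64 overlapped both subunits, and all 3 libraries shared 568 bp there, whereas the peak of 75.47 lay upstream and overlapped neither subunit. All of these peaks lay within 1 kb of a start of Zmynd15 as well, so they cannot be assigned to either gene.

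Cx3cl1, the membrane-tethered chemokine fractalkine at chr8:94772009-94782427, had a KMT9alpha peak (chr8:94771732-94772853) that spanned a start, with a score of 643.46 (above 61.3%). The KMT9beta peak, with a score of 399.85 (above 96.6%), covered 2092 bp across the start. The H4K12me1 peak, with a score of 122.52 (above 81.7%), ended 325 bp before the more upstream of the gene's 2 starts. It did not overlap KMT9alpha, while it shared 831 bp with KMT9beta. Further peaks lay downstream in the gene. KMT9alpha peaks of 174.12 and 180.68 were found inside a KMT9beta peak of 611.17, a score higher than that of KMT9beta at the promoter. This KMT9beta peak began 5541 bp after the more downstream start.

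Cxcr4, the receptor of Cxcl12 at chr1:128588199-128592293 on the minus strand, showed the same separation. Its KMT9beta peak covered 2888 bp with a score of 343.15 (above 95.1%). Within that width a weak KMT9alpha peak (175.24, above 14.5%) lay 481 to 1118 bp after the start and a weak H4K12me1 peak (65.17, above 12.03%) lay at least 608 bp before it. The subunit KMT9alpha and the mark did not overlap, and neither covered any of the 300 bases printed for Cxcr4, which the KMT9beta peak covered whole. With promoters of 500 bp either side Cxcr4 no longer had H4K12me1.

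**Figure D3:**
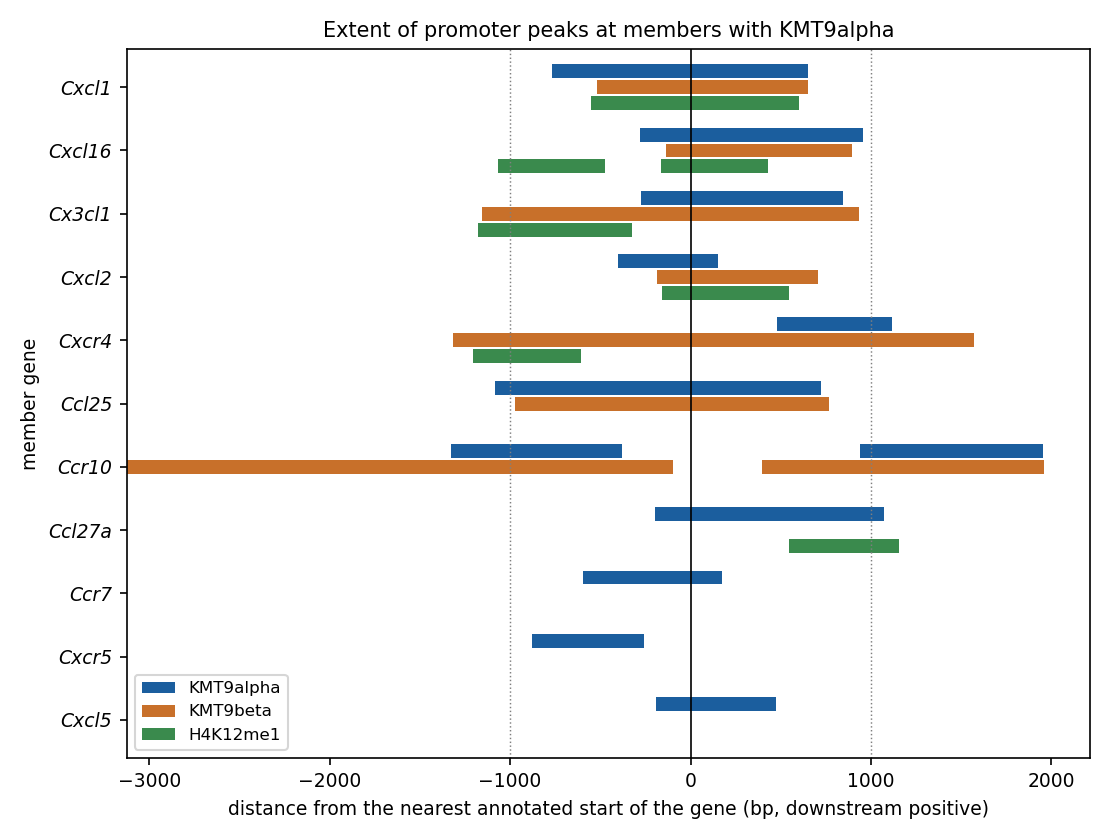
Extent of each promoter peak (bp from the nearest annotated start, downstream positive) at the 11 members with KMT9alpha, coloured by library, with dotted lines at 1 kb. At Cxcl1 the 3 peaks coincide over 1124 bp, and at Cx3cl1 and Cxcr4 H4K12me1 lies upstream of the start and does not overlap KMT9alpha. At Ccl27a the KMT9alpha and H4K12me1 bars are measured from different starts and do not overlap in the genome.

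The 2 members with both subunits and no promoter mark were Ccl25 and Ccr10. Ccl25, the ligand that draws lymphocytes to the small intestine through Ccr9, had KMT9alpha at the ceiling score of 3100 and KMT9beta at 203.69 (above 86.2%). These peaks lay at its first starts (chr8:4324147-4325956 for KMT9alpha), where the CpG ratio was 0.94 and which lie within 1 kb of a start of Elavl1, an RNA-binding protein gene. At the other start of Ccl25, 24.4 kb downstream with a ratio of 0.12, no library had a peak. Ccr10, a receptor of Ccl28, had KMT9alpha peaks of 815.25 and 445.91 and KMT9beta peaks of 294.62 and 181.34, and the promoter of Cntnap1 also took in 3 of these 4. An H4K12me1 peak of 120.86 overlapped both subunits in a coding exon of Ccr10, 1045 bp after the start. Of the members without a given library it came nearest to the 1 kb limit, and of those counted H4K12me1 at Cxcr1 lay farthest out, 779 bp from a start.

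KMT9alpha without KMT9beta was found at 4 members. Ccl27a, a skin chemokine gene with 8 starts, had KMT9alpha (734.62, above 62.9%) at its upstream starts and H4K12me1 (73.12) at starts about 4.0 kb downstream. Ccr7, the receptor that guides cells to lymph nodes, had KMT9alpha alone with a score of 321.69 (above 50.5%). Cxcr5, the receptor of Cxcl13, had it alone with 180.39 (above 18.9%), at its most upstream start. Cxcl5, a neutrophil attractant in the same cluster as Cxcl1, had it alone with 146.72, above 8.65% of the list.

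**Figure D4:**
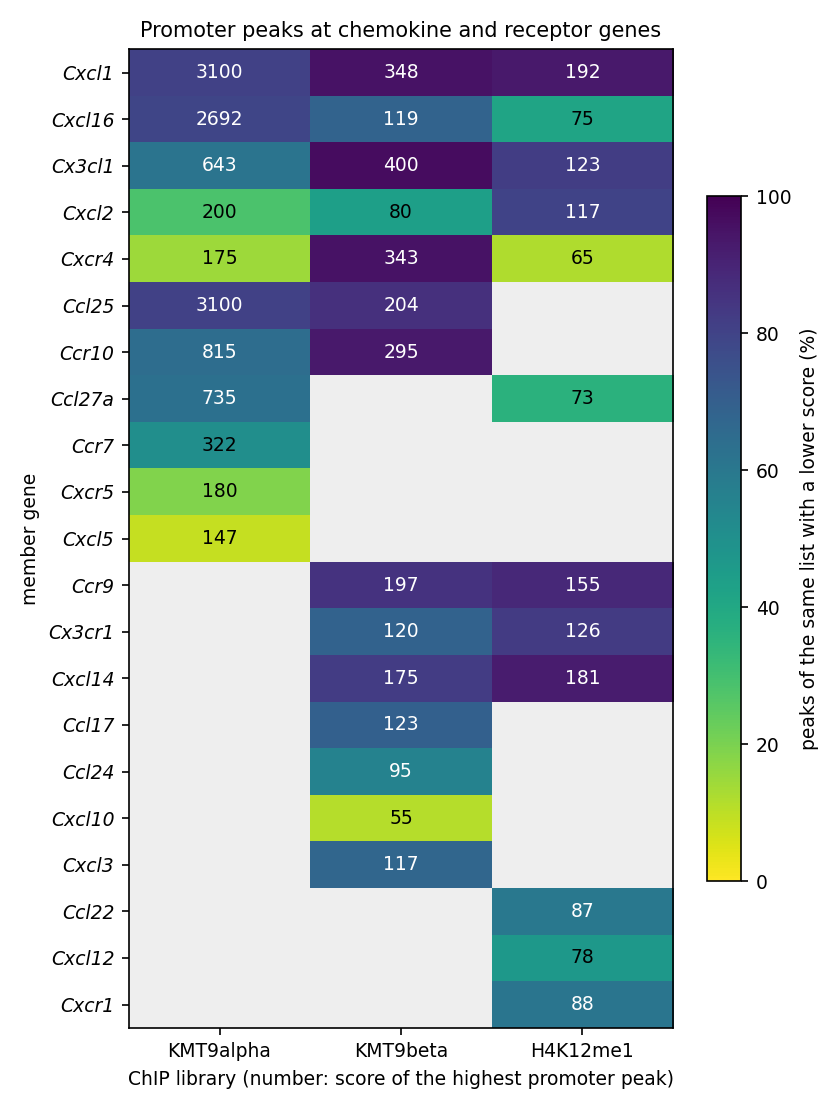
The 21 members with a promoter peak, by library. Each number is the score of the highest promoter peak, the colour gives the share of peaks of the same list with a lower score (%), and grey means no peak. Cxcl1 is above 80% of the list in every library, whereas Cxcl5 and Cxcl10 hold their only promoter peak near the bottom of its list.

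KMT9beta together with H4K12me1 and without KMT9alpha was found at 3 members. Cxcl14, a chemokine of resting epithelia, had KMT9beta peaks of 174.69 and 74.81 and an H4K12me1 peak of 181.24, which was above 92.2% of its list. Ccr9 (196.57 and 154.76) and Cx3cr1 (120.23 and 126.24 for the highest peaks) were the others. The Ccr9 peaks lay at its most upstream start, which lies within 1 kb of a start of Slc6a20a, and the starts of Ccr9 89 kb downstream had none.

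KMT9beta alone was found at Ccl17 (122.8), Cxcl3 (116.79), Ccl24 (94.53) and Cxcl10 (55.21), which are ligands for T cells, neutrophils, eosinophils and T cells respectively. The Cxcl10 peak was above only 11.0% of its list and began 295 bp after the start. H4K12me1 alone was found at Cxcr1 (88.09), a neutrophil receptor, Ccl22 (86.95), which shares the receptor Ccr4 with Ccl17, and Cxcl12 (77.91), the stromal ligand of Cxcr4. Cxcl12 had the highest CpG ratio of the members, 0.73.

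Of the 14 genes listed as chemokine genes that gut epithelium can express, 13 were members. Of these 13, 5 had all 3 libraries (38.5%, 13.9 to 68.4), close to the 37.4% of all genes, and Ccl25, Cxcl5, Cxcl10 and Cxcl14 had 1 or 2. Ccl20, Ccl28, Cxcl9 and Cxcl17 had no promoter peak (30.8%, near the 27.1% of all genes). The nearest KMT9alpha peak to a start of Ccl20, which attracts Ccr6-bearing lymphocytes, was 245366 bp away, and the nearest KMT9beta and H4K12me1 peaks were 44900 and 70866 bp away. Ccl28 had a KMT9beta peak of 63.85 in an intron, and Cxcl9 and Cxcl17 had H4K12me1 peaks of 69.84 and 76.57 in introns. Among the other 39 members none had all 3 (upper limit 9.03%) and 27 had none (69.2%, against 27.1% of all genes). Weighted by CpG class as above, the shares of all genes come to 4.71 listed members with all 3 and 3.36 with none. The counts were 5 and 4. For the other 39 members the weighted shares come to 4.29 and 23.2, where 0 and 27 were counted. The list was drawn up with earlier results of these data known, its median CpG ratio was 0.38 against 0.19 in the other members, and the difference was not tested.

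Ligand genes and the genes of their receptors can be set side by side. Cxcl1, Cxcl2 and Cxcl5 carried KMT9alpha, Cxcl3 carried KMT9beta alone, and their receptor gene Cxcr2 carried nothing. Cxcl16 had all 3, and its receptor gene Cxcr6 carried nothing. Cx3cl1 had all 3 and Cx3cr1 had KMT9beta and H4K12me1. Cxcr4 had all 3 and Cxcl12 had H4K12me1 alone. Ccl20 and Ccr6 both had no promoter peak. Ccl25 had both subunits, and Ccr9 had KMT9beta and H4K12me1. Ccl28 had no promoter peak, and Ccr10 had both subunits. The promoter peaks of Cxcl16, Ccl25 and Ccr9, and most of those of Ccr10, also lay within 1 kb of starts of other genes. Such shared peaks cannot be assigned to either gene. Ccl17 had KMT9beta alone and Ccl22 had H4K12me1 alone, and their receptor gene Ccr4 had no promoter peak. Ccr7 and Cxcr5 carried KMT9alpha, and their ligand genes Ccl19, Ccl21a, Ccl21b and Cxcl13, which are made in lymphoid tissue, carried nothing.

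Members of 6 clusters, of at least 3 genes less than 500 kb apart, accounted for 30 of the 52, and 9 of these 30 had a promoter peak, against 12 of the 22 others. In both sets the share without a promoter peak was above the 27.1% of all genes. In the CXC cluster on chromosome 5 (Cxcl5, Cxcl3, Cxcl15, Cxcl1 and Cxcl2 over 147 kb), 4 of 5 members had one, all 3 KMT9alpha peaks lay at member promoters, and 3 of 8 KMT9beta and 2 of 5 H4K12me1 peaks did. In the cluster of Ccl22, Cx3cl1 and Ccl17 on chromosome 8 all 3 members had one. Both CC clusters of chromosome 11, which hold the monocyte attractant genes Ccl2, Ccl7, Ccl8 and Ccl12 and the leukocyte attractant genes Ccl3, Ccl4 and Ccl5, had no promoter peak of any library at any of their 11 members. All of these members but Ccl3 fell in the lowest CpG class, in which 82.2% of all genes had no promoter peak.

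Peak density over the whole of these clusters differed as well. The cluster from Ccl2 to Ccl1 (270 kb) held 1 KMT9alpha, 2 KMT9beta and 1 H4K12me1 peak, or 0.37, 0.74 and 0.37 per 100 kb, against 1.07, 3.75 and 2.51 over the autosomes. The cluster from Ccl5 to Ccl4 held 0.72, 3.6 and 2.16 per 100 kb, and the CXC cluster of chromosome 5 held 2.05, 5.46 and 3.41. The densities were highest in the chromosome 8 cluster from Ccl22 to Ccl17 (66.4 kb), at 4.51, 10.5 and 6.02. In the cluster of chromosome 4 (Ccl27a, Ccl21b, Ccl27b, Ccl19 and Ccl21a over 1005 kb) 1 KMT9alpha, 2 KMT9beta and 3 H4K12me1 peaks were called. This stretch contains near-identical gene copies and 50000 bases of assembly gap, and how reads that fit several copies were treated remains unstated in the labels.

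**Figure D5:**
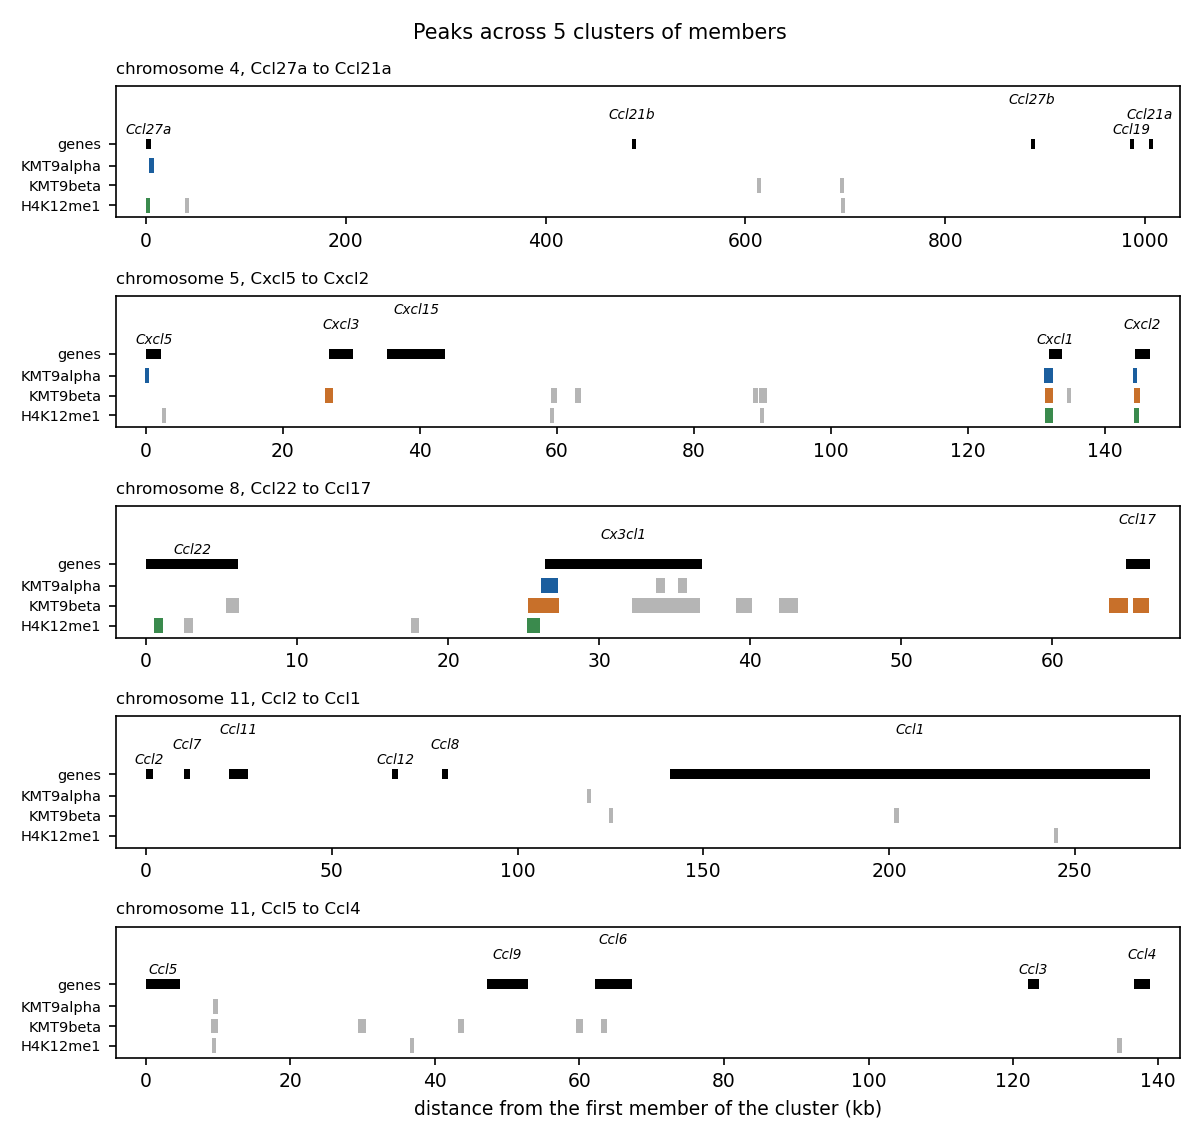
Peaks across 5 of the 6 clusters of members, by distance from the first member (kb); bars are genes (black), peaks at member promoters (coloured by library) and other peaks (grey), the narrowest widened to stay visible. Coloured bars gather at Cxcl1 and Cxcl2 and around Cx3cl1, and both chromosome 11 clusters have none.

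Within gene bodies, from the first to the last annotated base, KMT9alpha had a peak at 13 members (25%, against 61.0% of all genes), KMT9beta at 23 (44.2%, against 76.2%) and H4K12me1 at 16 (30.8%, against 62.0%). Members are short, with a median of 4.96 kb against 17.6 kb for all genes, and the part of length in these shares was not tested. Cx3cr1, Ccr9 and Cxcr5, whose annotated bodies are 168, 106 and 50.1 kb long, held 12 of the 25 KMT9alpha, 38 of the 63 KMT9beta and 34 of the 48 H4K12me1 peaks. Ccl1, with an annotated body of 129 kb, held 0, 1 and 1. In Cx3cr1, the fractalkine receptor gene of macrophages, the highest of 8 KMT9alpha peaks (3100) lay at a start of Csrnp1 and the second highest (747.72) at starts of Gorasp1 and Ttc21a, which are other genes. In Ccr9 the highest (1566.84) lay at a start of Lztfl1. Beyond these, Ccr7 had KMT9alpha and KMT9beta together in an intron (215.76 and 111.97) and H4K12me1 in a coding exon (193.16). A peak in the body and none at the promoter was found at 8 members: Ccl1, Ccl6, Ccl26, Ccl28, Ccr4, Ccr6, Cxcl9 and Cxcl17. No share of all genes is given here for this pattern or for the absence of any peak. Neither is therefore read as particular to the members. No peak in promoter or body was found at 23 members. These were the CC ligand genes Ccl2, Ccl3, Ccl4, Ccl5, Ccl7, Ccl8, Ccl9, Ccl11, Ccl12, Ccl19, Ccl20, Ccl21a, Ccl21b and Ccl27b, the CXC ligand genes Cxcl13 and Cxcl15, and receptor genes including Ccr1, Ccr2, Ccr3, Ccr8, Cxcr2 and Cxcr6.

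Other genes of the pathway, from a list of 27, had KMT9alpha at 15 promoters (55.6%, against 55.8% of all genes), KMT9beta at 18 (66.7%, against 68.3%), H4K12me1 at 15 (55.6%, against 47.4%), all 3 at 12 (44.4%, against 37.4%) and none at 8 (29.6%, against 27.1%). These shares were near those of all genes, and the genes are named as a description. Signal transducers made up most of the 12: the G protein genes Gnai1, Gnai2, Gnai3, Gnb1 and Gnb2, the receptor kinase genes Grk2, Grk5 and Grk6 and the arrestin gene Arrb1, besides Adam10, which sheds Cx3cl1 and Cxcl16 from the cell surface, and the sulfation enzyme genes Tpst1 and Tpst2. The 8 with none were the ligand genes Xcl1, Pf4 and Ppbp, the receptor gene Xcr1, the atypical receptor genes Ackr1, Ackr2 and Ackr4, and Grk3. The NF-kB factors and inhibitors, which are known to control Cxcl1 and Cxcl2, had KMT9alpha and KMT9beta at 13 of 13 promoters (55.8% and 68.3% of all genes). All 3 were at 10 of these 13 (76.9%, against 37.4%). With the same weighting by CpG class, the shares of all genes come to 10.5 for KMT9alpha, 11.8 for KMT9beta and 7.1 for all 3. The difference was not tested. The 77 interleukin and interleukin receptor genes had KMT9alpha at 23 (29.9%), KMT9beta at 32 (41.6%), H4K12me1 at 21 (27.3%), all 3 at 12 (15.6%) and none at 40 (51.9%). The shares of all genes were 55.8%, 68.3%, 47.4%, 37.4% and 27.1% in the same order. Their median CpG ratio was 0.22, near that of the chemokine genes, and the NF-kB genes had 0.58.

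Promoter peaks at cell type markers were counted beside these. All 3 were present at 7 of 10 gut epithelial marker genes, including Epcam, Cdh1 and Krt8, and Krt20 had none. The share of all genes with all 3 was 37.4%. Of 10 leukocyte marker genes, 0 had KMT9alpha (55.8% of all genes), 2 had KMT9beta (68.3%) and 2 had H4K12me1 (47.4%). No library had a promoter peak at 7 of them (27.1% of all genes), among them Ptprc, which encodes CD45. Fibroblast and endothelial markers had all 3 at 1 of 10, Pdgfra, and KMT9beta at 7 of 10, near the 68.3% of all genes. KMT9alpha was at 2 of these 10 (55.8% of all genes) and H4K12me1 at 2 (47.4%). In gene bodies KMT9beta had a peak at 9 of the 10 leukocyte markers, Ptprc among them (76.2% of all genes). H4K12me1 had one at 5 of them (62.0%) and KMT9alpha at 2 (61.0%). Each library had a body peak at 9 of the 10 gut epithelial markers. The fibroblast and endothelial markers had KMT9alpha in 3, KMT9beta in 8 and H4K12me1 in 7 of 10 bodies. The body shares of all genes were 61.0%, 76.2% and 62.0% in the same order. Peaks do not measure expression, and what part other cells in the culture have in any peak was not tested.

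The count for all 3 among the members depends on low-ranking peaks. How the share of all genes changes under the settings below is not given here. With each list restricted to scores of its median or more, and likewise with the 25700 highest peaks of each list, Cxcl1 and Cx3cl1 were the members that kept all 3. KMT9alpha at 500 bp, 1 kb or 2 kb was at the same 11 members, and with scores of the median or more it was at 7, without Cxcl2, Cxcl5, Cxcr4 and Cxcr5. Leaving out peaks within 1 kb of a start of another gene removed Cxcl16 from the genes with all 3 and Ccl25 from those with KMT9alpha.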

How the data were processed

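ChIP-seq peak lists for KMT9alpha, KMT9beta and H4K12me1 (1 library each) were used as deposited. Per the labels' protocols reads were mapped to mm10 with STAR, and the submitters' processing notes name Bowtie2. The peak names begin with MACS. Neither labels nor files state the caller's version, threshold or control. The deposited score of each peak has no stated meaning. The lists held 26227, 90473 and 60409 peaks, of which 25700, 89936 and 60058 were on autosomes and used. Depth is unknown.

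Genes and starts came from GENCODE M21 (85 genes without a protein-coding start were left out), promoter sequences from RefSeq (GRCm38.p6). Overlap needed 1 bp. CpG ratios were the mean over a gene's windows. Shares have exact Clopper-Pearson intervals. No test was made, since each antibody has 1 library. Overlap code was tested on simulated data. Members and lists were chosen with earlier results of these data known. Named genes were all members with KMT9alpha, all epithelial members, up to 5 per other class, and pathway genes with all 3 or none. Pairs, clusters and genes with no peak that go beyond this were named after their values were seen. 1 receptor gene is counted and not reported by name here, nor is its cluster described. Windows, starts, score threshold, peak number and overlap rule were varied. Software: scipy 1.17.1, matplotlib 3.10.9, pandas 2.3.3 and numpy 2.4.6 under Python 3.11.15.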

Additional observations from a re-analysis of the deposited data

How the results depend on the processing

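Of 69 recomputed counts of members, 61 stayed within 1.5 times the value reported and 8 did not. These counts cover members only, without the shares of all genes under the same settings. With each list restricted to scores of its median or more, KMT9alpha was at the promoters of 7 members and all 3 libraries at 2. With the 25700 highest peaks of each list, KMT9beta was at 7 promoters and in 9 gene bodies, and all 3 were at 2 promoters. Widening promoters to 5 kb gave H4K12me1 at 22 members and all 3 at 8. With the gene body taken without its promoter, KMT9alpha was in 8 bodies. Leaving out peaks at starts of other genes, the 5 members of the chromosome 4 cluster, or asking for all 3 at the same start were chosen after seeing the data, and gave 4, 5 and 5 members with all 3. No paired analysis was possible because each antibody has a single library. The unknown depth limits every absence of a peak: it means that none was called, not that the protein or mark is absent.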
